A study of Mus musculus with 9 samples.

Results

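The nuclear genes for the proteins of the mitochondrial ribosome were followed in mouse round spermatids (RS), the haploid germ cells that arise from the meiotic divisions, after inhibition of lactate dehydrogenase (LDH) and after the addition of L-2-hydroxyglutarate (L-2HG). The genes were taken by name: every symbol in the table that begins with Mrpl or Mrps followed by a digit, pseudogenes excepted, with at least 10 reads summed over the 9 libraries. Of the 55414 genes listed, 78 carry such a name, and 77 of these are among the 25128 genes that reached 10 reads and were tested. The remaining gene, Mrpl53, is listed at 0 in all 9 libraries. In an annotation of an earlier mouse assembly, 88.0% of the exonic bases of Mrpl53 overlap another gene on the same strand. By the subunit in which the protein sits, 50 of the 77 members belong to the large subunit, 26 to the small subunit, and Mrps36 was kept apart.

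The cells came from testes of adult Stra8-iCre; tdTomato mice on a C57Bl/6 background, labelled WT, in which Cre recombinase under the Stra8 promoter switches on a red fluorescent protein in the male germ line. RS were sorted by red fluorescence and forward scatter, so all groups share this reporter. They were kept for 24 h with the vehicle alone, DMSO at 0.15%, or with oxamate, which blocks LDH, at 24 mM. The last group received that dose of oxamate together with octyl-L-2HG at 0.3 mM. The methods describe a medium with lactate and pyruvate for cultured spermatocytes and name none for RS. The octyl ester lets L-2HG pass the cell membrane, and DMSO was 0.15% in all groups. Each group holds 3 libraries of polyA-selected RNA, numbered 1 to 3 (vehicle), 4 to 6 (oxamate) and 7 to 9 (oxamate with octyl-L-2HG). The paper states that RS were incubated in triplicates, but the labels do not say whether the libraries of a group came from separate animals. The p-values therefore measure the spread between these libraries, which may be technical. Counted reads per library ranged from 32339533 to 39888396. Round spermatid markers (12 genes) summed to 2818 to 3237 CPM (reads scaled to the library total) and spermatocyte markers (8 genes) to 590 to 698, whereas spermatogonia markers (7 genes) summed to 6.82 to 7.99. Of somatic cells, macrophage and blood markers (5 genes) summed to 3.07 to 4.54, peritubular (3 genes) to at most 2.96, Leydig (5 genes) to 0.555 to 1.09 and Sertoli cell markers (6 genes, 3 of them tested) to 0.0618 to 0.212. The round spermatid sum was 3169 to 3237 in vehicle, 2975 to 3105 with oxamate and 2818 to 2824 with both compounds, and its part in the results was not tested.

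Mitochondrial ribosomes translate the few messenger RNAs made from mitochondrial DNA, whose products are core subunits of the respiratory chain and ATP synthase. The ribosomal RNA is transcribed inside the mitochondrion, whereas every ribosomal protein is encoded in the nucleus, made in the cytosol and imported. Many of these proteins descend from bacterial ribosomal proteins, and others are found in mitochondrial ribosomes alone. By the lists used here, 47 members have a bacterial counterpart, 28 do not, and Mrpl55 and Mrps36 were left unclassed. As spermatids elongate, their mitochondria gather around the base of the flagellum and form the midpiece of the sperm.

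Before any treatment effect, the members differed widely in level. Per kilobase of transcript, which is the deposited normalized read count divided by the length of the longest annotated transcript, the median member stood at 447 in vehicle, against 26.6 for all genes tested. Cytosolic ribosomal protein genes had a median of 2986 on the same scale and nuclear genes of the respiratory chain one of 1872. Large subunit genes had a median of 574 and small subunit genes of 277. The order was led by Mrpl54 at 5334 ± 417, Mrpl20 at 4638 ± 590, Mrpl39 at 3291 ± 64.8, Mrpl24 at 1938 ± 142 and Mrpl41 at 1802 ± 155 normalized reads per kilobase (SD, n = 3), all 5 in the large subunit. Mrpl54 and Mrpl20 overlapped within 1 SD, as did Mrpl24 and Mrpl41. The lowest were Mrpl49 at 7.60 ± 1.28, Mrpl27 at 17.8 ± 3.35, Mrps35 at 18.6 ± 1.27, Mrpl58 at 23.6 ± 3.66 and Mrpl19 at 29.7 ± 2.44 on that scale. Ranked instead by normalized reads not divided by length, the order was a different one. Of the summed normalized reads of all members in vehicle, Mrpl39 alone took 9.96%, the top 5 genes of that order 30.2% and the top 10 genes 45.3%. These levels rest on the annotated transcript, and the isoforms used in spermatids were not measured.

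**Figure D1:**
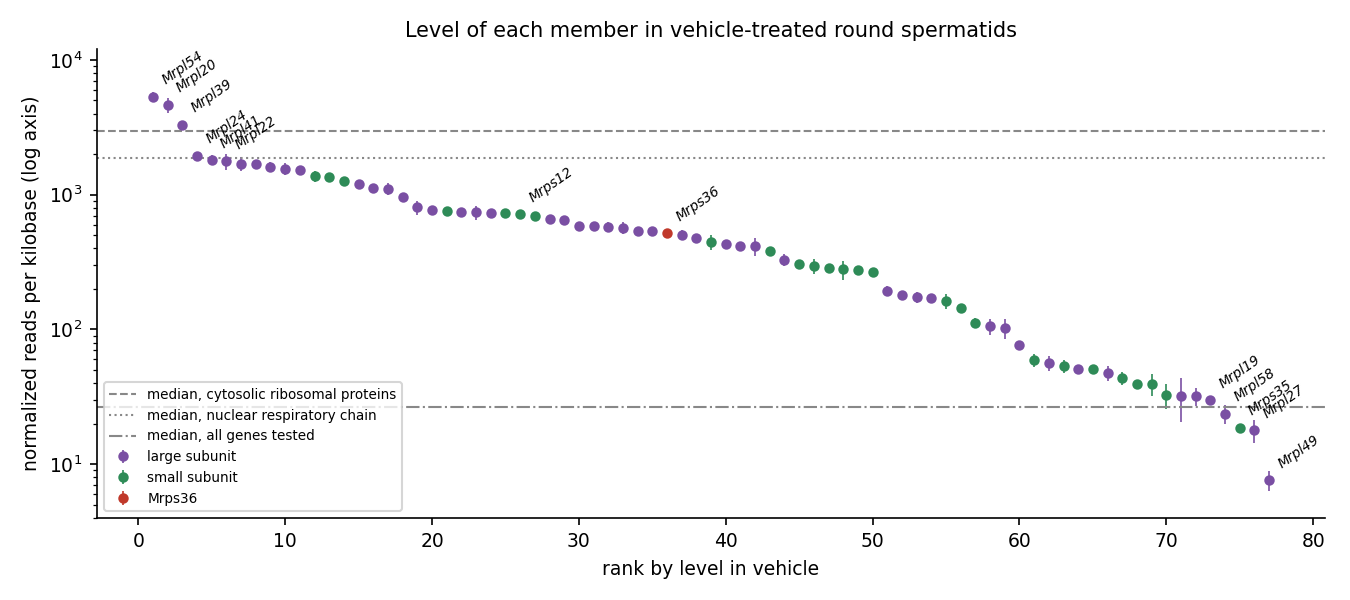
Level of the 77 members in vehicle, ordered from the highest to the lowest (horizontal axis, rank), in normalized reads per kilobase on a log axis; points are means of 3 libraries, bars the SD, colours the subunit, and horizontal lines the medians of 3 gene sets. Mrpl54 leads at 5334 and Mrpl49 closes the order at 7.60.

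Proteins with a known place in the particle spanned this range, here again in normalized reads per kilobase in vehicle (SD, n = 3). Mrpl12 and Mrpl10 form the flexible stalk that recruits translation factors, and Mrpl11 sits at its base. Their levels were 1690 ± 202, 583 ± 47.7 and 659 ± 46.9. Mrpl45, on the side of the exit tunnel that faces the inner membrane, stood at 105.6 ± 14.1, and Mrpl44, a relative of ribonuclease III, at 102 ± 16.8. Mrpl58, a peptidyl-tRNA hydrolase built into the large subunit, stood at 23.6 ± 3.66, and Mrps7, on the small subunit near the decoding site, at 39.1 ± 7.29. The 3 relatives of the bacterial protein S18 differed: Mrps18a, which lies in the large subunit despite its name, stood at 1562 ± 155 and Mrps18b at 1350 ± 49.8, whereas Mrps18c stood at 285 ± 13.5. Mrps30, also a large subunit protein, stood at 504 ± 38.8. Of the exonic bases of Mrps18c, 23.2% overlap another gene on the same strand, and for Mrps24, Mrps34 and Mrps6 the shares are 15.4%, 37.0% and 19.9%, so reads of these genes may have been assigned to a neighbour or dropped. Among genes whose levels are given above, the largest overlaps on the opposite strand are 36% for Mrpl19, 30.5% for Mrps18b and 26.3% for Mrpl24. These would matter if the counting ignored strand, a setting that is not known.

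In the fit of all 9 libraries with TMM scaling, none of these 11 proteins passed the threshold of the tests described next. Among the alternatives, Mrpl10 passed with total counts or without vehicle library 1, and Mrpl12 and Mrpl44 without oxamate library 4. Mrpl12, for example, had normalized counts of 2224 ± 266 in vehicle, 2081 ± 309 with oxamate and 2309 ± 111 with both compounds (SD, n = 3). Mrpl44 had 146 ± 23.9, 132 ± 44.0 and 157 ± 15.7, with a range of 105.9 to 183 among the oxamate libraries alone. Mrps18a had 1381 ± 137, 1395 ± 128 and 1467 ± 65.3. Mrps18b had 1456 ± 53.7, 1510 ± 102 and 1430 ± 20.6. For each of these 4 genes the groups overlapped.

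As a fraction of each library, reads of the members made up 0.227%, 0.216% and 0.202% of the counted reads in the vehicle libraries. With oxamate the values were 0.209%, 0.199% and 0.195%, and with both compounds 0.197%, 0.199% and 0.199%. The vehicle and oxamate ranges overlapped, while every library with both compounds lay below every vehicle library in this share. Summed in normalized reads, the members reached 73467 to 74795 with both compounds, inside the vehicle range of 72034 to 80389. Cytosolic ribosomal protein genes took 0.772% ± 0.0556 of reads in vehicle, 0.698% ± 0.0423 with oxamate and 0.668% ± 0.0210 with both compounds, and nuclear respiratory chain genes 0.709% ± 0.0486, 0.653% ± 0.0437 and 0.627% ± 0.0151 (SD, n = 3). The ratio of large to small subunit reads was 4.87 ± 0.0346 in vehicle, 4.67 ± 0.0806 with oxamate and 4.84 ± 0.0777 with both compounds. In such bulk samples, fewer cells of a type and less RNA per cell cannot be told apart.

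Within the groups, many members were highest in the same library. Vehicle library 1 was the highest of the vehicle libraries for 58 of 77 members (75.3%), against 41.3% of the 10715 well covered genes, defined as those averaging 100 normalized reads or more over the 9 libraries. Oxamate library 4 was the highest of its group for 52 members (67.5%), against 45.8% of those genes. The median log2 deviation of the members from their own mean was 0.15, 0.02 and -0.03 in the vehicle libraries, 0.06, -0.07 and -0.11 in the oxamate libraries, and between -0.0045 and 0.0070 in the libraries with both compounds. For the members, counts of calls and of genes below 0 are given below also without each of these libraries.

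**Figure D2:**
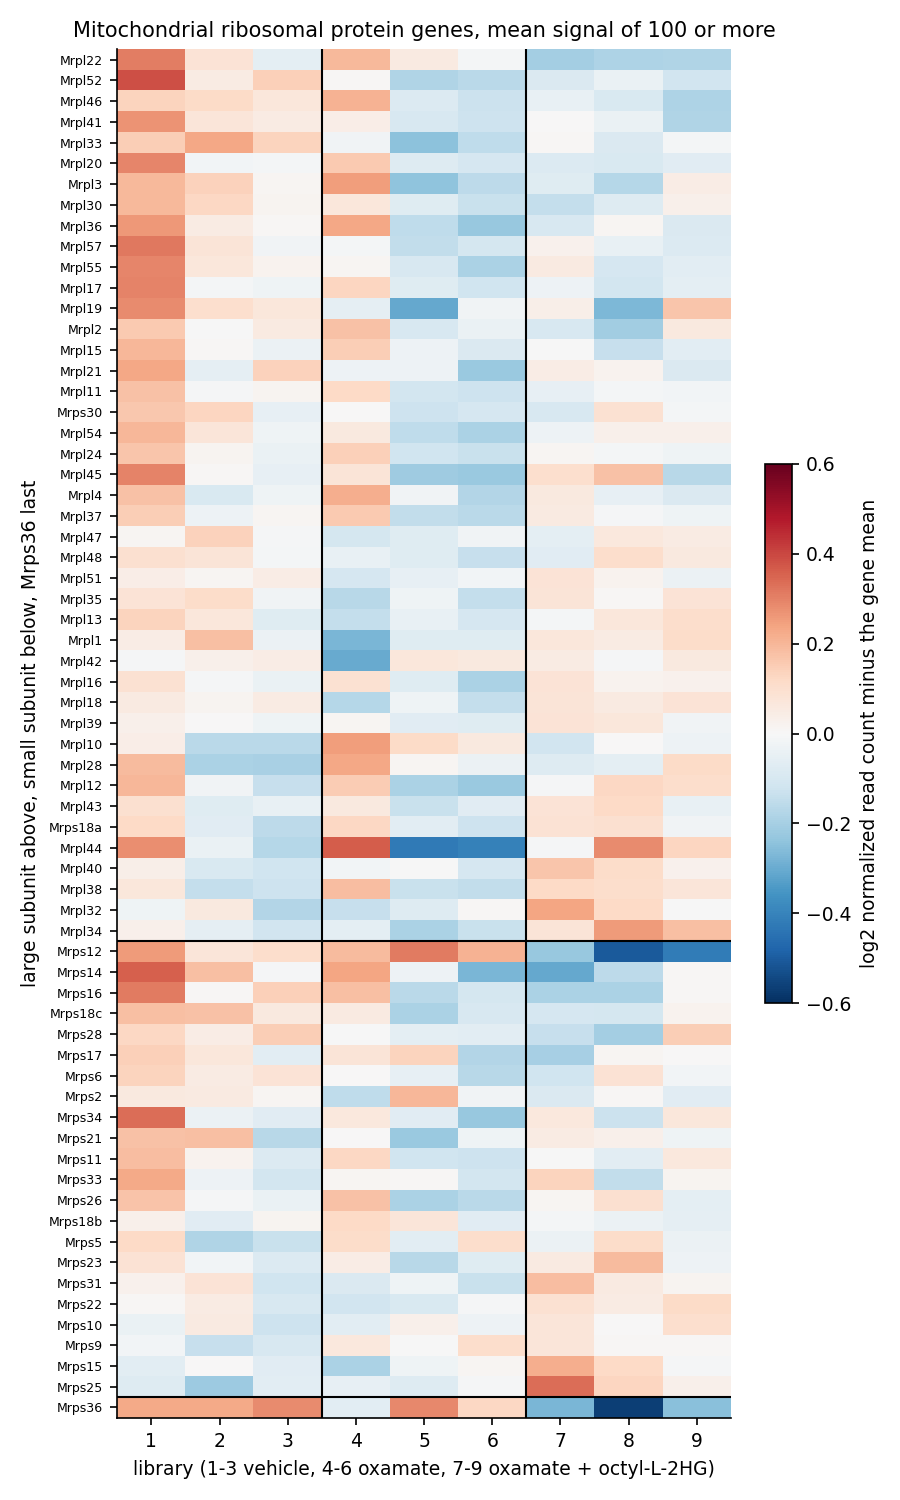
Log2 normalized read count minus the mean of the gene over the 9 libraries (colour, in log2 units) for the 66 well covered members; rows are genes ordered within subunit by fold change with both compounds against vehicle, columns are libraries. Vehicle library 1 is red for most genes, oxamate libraries 5 and 6 are blue for most, and Mrps12 and Mrps36 are the deepest blue in libraries 7 to 9.

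The first comparison asked what LDH inhibition alone did. Between oxamate and vehicle, no member rose and none fell by edgeR's quasi-likelihood test at a Benjamini-Hochberg adjusted p-value under 0.05, where 3.97% of all genes tested were called higher and 1.22% lower. At an unadjusted p-value under 0.05, 1 member was higher and 10 were lower, against 10.2% and 7.12% of all genes, and DESeq2 called none, where it called 6.20% of its genes higher and 1.70% lower. Small differences leaned one way: 60 of 77 members had a log2 fold change below 0, compared with 52.0% of all genes, with a median of -0.08 against -0.01. Among well covered genes, 55 of 66 members and 5099 of 10715 genes were below 0, with medians of -0.09 and 0.01. Large subunit genes had a median log2 fold change of -0.09 (41 of 50 below 0) and small subunit genes of -0.06 (18 of 26). The libraries of the 2 groups did not overlap for 14 members that were lower with oxamate and 2 that were higher, against 9.95% and 11.4% of all genes tested. Without vehicle library 1, the median was -0.03 and 48 members were below 0, against 51.1% of all genes. Mrpl10 was then called higher with oxamate (0.31 ± 0.09 on the log2 scale, adjusted p = 0.0411) and no member lower, where 2.88% and 1.08% of all genes were called.

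Without oxamate library 4, 10 members were lower with oxamate and none higher, where 2.86% and 6.42% of all genes were. Then 62 members were below 0, against 51.7% of all genes, with a median of -0.12 against -0.01. The 10 lower members were Mrpl54, Mrpl33, Mrpl52, Mrpl57, Mrpl55, Mrpl41, Mrpl44, Mrps14, Mrpl3 and Mrpl12, with log2 fold changes from -0.45 to -0.23. The oxamate libraries left in this fit, 5 and 6, were close to each other. Their counts differed by a chi-square per degree of freedom of 1.98, against 16.7 and 20.7 for pairs with library 4. Vehicle pairs gave 5.86 to 10.7 and pairs with both compounds 2.27 to 6.42. With vehicle library 1 left out as well, a choice made after the data were seen, 3 members passed the threshold, Mrpl10 higher and Mrpl54 and Mrpl33 lower, where 6.14% of all genes were higher and 2.46% lower. In that fit 55 members were below 0, against 52.2% of all genes, with a median of -0.08 against -0.01.

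Among the members nearest to the threshold, Mrpl33 is a small protein with a bacterial counterpart in the large subunit. Its normalized counts were 345, 365 and 342 in vehicle, 307, 263 and 280 with oxamate, and 312, 293 and 309 with both compounds. All vehicle libraries lay above all treated ones, with a log2 fold change of -0.30 ± 0.09 (SE, adjusted p = 0.0610) for oxamate against vehicle. Across the 3 groups together Mrpl33 differed at an adjusted p of 0.0478. Mrpl52, a protein of the large subunit that bacteria lack, had 425, 335 and 358 in vehicle, 327, 287 and 291 with oxamate, and 305, 316 and 300 with both. Again the vehicle libraries were the highest 3, and the log2 fold change with oxamate was -0.30 ± 0.10 (adjusted p = 0.0890). The stalk gene Mrpl10 had the opposite shape, with 1090, 951 and 948 in vehicle, 1264, 1148 and 1107 with oxamate, and 982, 1065 and 1039 with both. Its oxamate libraries did not overlap with the other groups, but neither step passed the threshold (adjusted p = 0.0949 for oxamate against vehicle and 0.0924 for the step back).

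The second comparison asked what octyl-L-2HG changed in cells that already received oxamate. Here 3 members fell and none rose (edgeR's quasi-likelihood test, Benjamini-Hochberg adjustment), where 8.06% of all genes tested were lower and 3.18% higher. The 3 genes were Mrps12, Mrps36 and Mrpl22. At an unadjusted p-value under 0.05, 3 members were higher and 5 lower, against 8.50% and 15.1% of all genes, and DESeq2 called 1 higher and 3 lower, where it called 7.33% and 9.72% of its genes. Of the 77 members, 37 had a log2 fold change below 0, against 54.5% of all genes, with a median of 0.01 against -0.04. Among well covered genes, 27 of 66 members and 5123 of 10715 genes were below 0, with medians of 0.03 and 0.01. Without oxamate library 4, only 25 of the 77 members were below 0, against 52.0% of all genes, and the median was 0.07 against -0.02. The same 25 and 0.07 were found with vehicle library 1 left out as well, and without vehicle library 1 alone 37 were below 0. The sign of the median depended on the scaling and on the libraries, since it was -0.03 with total counts and -0.02 without library 6. Libraries did not overlap for 5 members that were lower and 9 that were higher with octyl-L-2HG, against 15.3% and 13.4% of all genes. Of the 28 members without a bacterial counterpart 7 were below 0, and of the 47 with one 29 were, a difference that was not tested. With transcript length as an offset, 2 members were higher and 2 lower, where 4.65% and 7.18% of all genes were. Without oxamate library 4 the split was 3 and 3, where 6.38% of all genes were higher and 11.5% lower. The 3 higher members were then Mrpl12, Mrpl38 and Mrpl44, the last with a log2 fold change of 0.53 ± 0.14 (adjusted p = 0.00730).

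Against vehicle, oxamate with octyl-L-2HG lowered 5 members and raised none, where 10.6% of all genes tested were lower and 7.48% higher. These were Mrps36, Mrps12, Mrpl22, Mrps14 and Mrpl52. At an unadjusted p-value under 0.05, 1 member was higher and 16 were lower, against 12.9% and 17.1% of all genes, and DESeq2 called none higher and 4 lower, where it called 11.1% and 10.5% of its genes. Of the 77 members, 54 had a log2 fold change below 0, against 55.0% of all genes, with a median of -0.07 against -0.05. Among well covered genes, 45 of 66 members and 4728 of 10715 genes were below 0, with medians of -0.07 and 0.03. Without vehicle library 1, 45 of the 77 members were below 0, against 53.7% of all genes, and the median was -0.02 against -0.03. With transcript length as an offset 39 members were below 0 and the median was -0.0090, and with total counts 65 were, with a median of -0.14 against -0.11. Without oxamate library 4 the number was again 54. Libraries did not overlap for 13 lower and 5 higher members, where 18.5% and 18.0% of all genes were in these classes. The split of calls was 1 higher and 4 lower with DESeq2's size factors, where 8.78% and 9.92% of all genes were called. It was 3 and 5 with transcript length as an offset, against 6.64% and 9.64%. With total counts none was higher and 13 were lower, against 4.90% and 13.4%, and 62.1% of all genes were then below 0. The count fell to 2, Mrps12 and Mrps36, without vehicle library 1 or library 7, and was 3 without library 8. Without vehicle library 1, 5.94% of all genes were higher and 9.48% lower. The shares were 4.73% and 7.27% without library 7, and 4.86% and 7.40% without library 8. Without oxamate library 4, 1 member was higher and 12 were lower, where 11.4% and 13.7% of all genes were. The 2 comparisons with both compounds share these libraries and are therefore not independent.

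**Figure D3:**
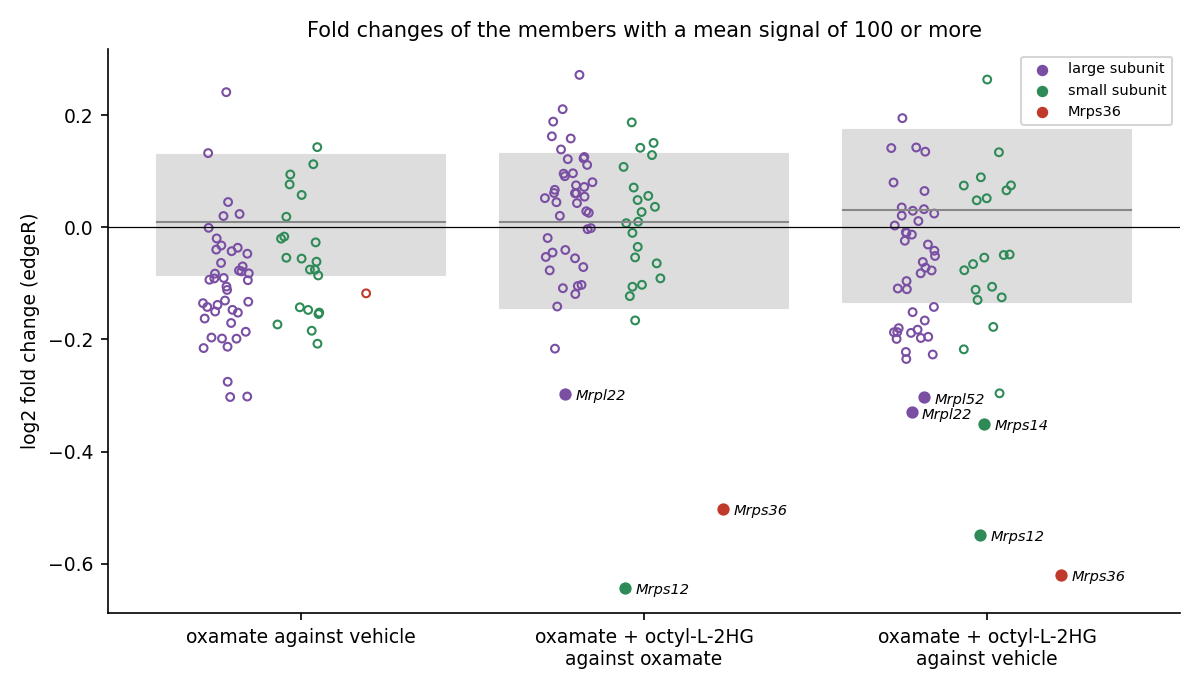
Log2 fold change (vertical axis) of the 66 well covered members in the 3 comparisons; each point is a gene, coloured by subunit, filled where the adjusted p-value is under 0.05, and the grey band spans the middle 50% of the 10715 well covered genes with their median as a line. Mrps12 and Mrps36 lie below the other members in both comparisons with octyl-L-2HG, and no point is filled for oxamate against vehicle.

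Across all 3 groups, 5 members differed by edgeR's quasi-likelihood test, Mrps12, Mrps36, Mrpl22, Mrpl52 and Mrpl33, where 19.8% of all genes tested did. The count was 18 without oxamate library 4, where 29.7% of all genes differed, and 3 without library 5, where 16.9% did. It was 2 without library 7, 8 or 9, where 12.7%, 13.0% and 14.5% did. Among well covered genes, 3 of the 66 members and 1361 of the 10715 genes were lower with octyl-L-2HG than with oxamate alone, and none of the members and 866 of the genes were higher with oxamate than with vehicle.

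Mrps12 (ENSMUSG00000045948), the counterpart of bacterial S12, lies at the decoding centre of the small subunit. It had 680, 599 and 613 normalized counts in vehicle, 650, 705 and 658 with oxamate, and 486, 401 and 426 with both compounds. Every library with both compounds was below each of the other 6, and the vehicle and oxamate libraries overlapped. The log2 fold change was 0.09 ± 0.09 (SE) for oxamate against vehicle, -0.64 ± 0.09 for both compounds against oxamate (adjusted p = 6.87e-05) and -0.55 ± 0.09 against vehicle (adjusted p = 0.000134). Both falls passed the threshold in all 17 alternatives that were run.

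Mrps36 (ENSMUSG00000061474) was named as a small subunit protein, but is also known as a part of the alpha-ketoglutarate dehydrogenase complex of the citric acid cycle, which it helps to hold together. It had 360, 359 and 374 normalized counts in vehicle, 294, 375 and 334 with oxamate, and 254, 207 and 258 with both. The libraries with both compounds were the lowest 3, and the oxamate libraries straddled the vehicle level. The log2 fold change was -0.12 ± 0.10 for oxamate against vehicle, -0.50 ± 0.11 for both against oxamate (adjusted p = 0.00384) and -0.62 ± 0.11 against vehicle (adjusted p = 0.000244). Each of the 17 alternatives called both falls. The genes for the enzymes of that complex were named after their values were seen. Dlst, its succinyltransferase, had 2227 ± 69.3 normalized counts in vehicle, 2472 ± 299 with oxamate and 3301 ± 65.9 with both. Its log2 fold change with both compounds was 0.55 ± 0.08 against vehicle (adjusted p = 3.27e-05) and 0.39 ± 0.08 against oxamate (adjusted p = 0.00214). Ogdh, the alpha-ketoglutarate decarboxylase, had 4193 ± 281, 4353 ± 309 and 4504 ± 28.9 and passed the threshold in no comparison. Dld, the shared lipoamide dehydrogenase, had 3564 ± 194, 3572 ± 225 and 4161 ± 160, with a rise of 0.20 on the log2 scale for both compounds against vehicle (adjusted p = 0.0441, kept in 9 of 17 alternatives and lost with total counts, with the length offset and without library 1, 3, 5, 7, 8 or 9).

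Mrpl22 (ENSMUSG00000020514), the counterpart of bacterial L22, lines the exit tunnel of the large subunit. It had 1452, 1244 and 1127 normalized counts in vehicle, 1341, 1219 and 1165 with oxamate, and 1020, 1034 and 1034 with both. The libraries with both compounds were again the lowest 3, but the vehicle libraries spread over more than the distance between the groups. The log2 fold change was -0.30 ± 0.09 against oxamate (adjusted p = 0.0319) and -0.33 ± 0.09 against vehicle (adjusted p = 0.0109). The call against oxamate was kept in 12 of 17 alternatives and that against vehicle in 14. Neither held with transcript length as an offset, the former was lost without library 5, 7, 8 or 9, and the latter without library 1 or 7.

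Mrps14, the counterpart of bacterial S14 in the head of the small subunit, had 994, 878 and 771 normalized counts in vehicle, 913, 760 and 641 with oxamate, and 627, 695 and 779 with both. Its groups overlapped, and the log2 fold change with both compounds against vehicle was -0.35 ± 0.12 (adjusted p = 0.0389, kept in 12 of 17 alternatives and lost with filterByExpr, edgeR's filter on low counts, and without library 1, 2, 7 or 8). The fall of Mrpl52 against vehicle, -0.30 ± 0.10 on the log2 scale (adjusted p = 0.0382), was kept in 7 of 17. It was lost with DESeq2, with DESeq2's size factors in edgeR, with no filter on low counts and with the length offset. It was also lost without library 1, 3, 7, 8 or 9, and without libraries 1 and 4 together.

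**Figure D4:**
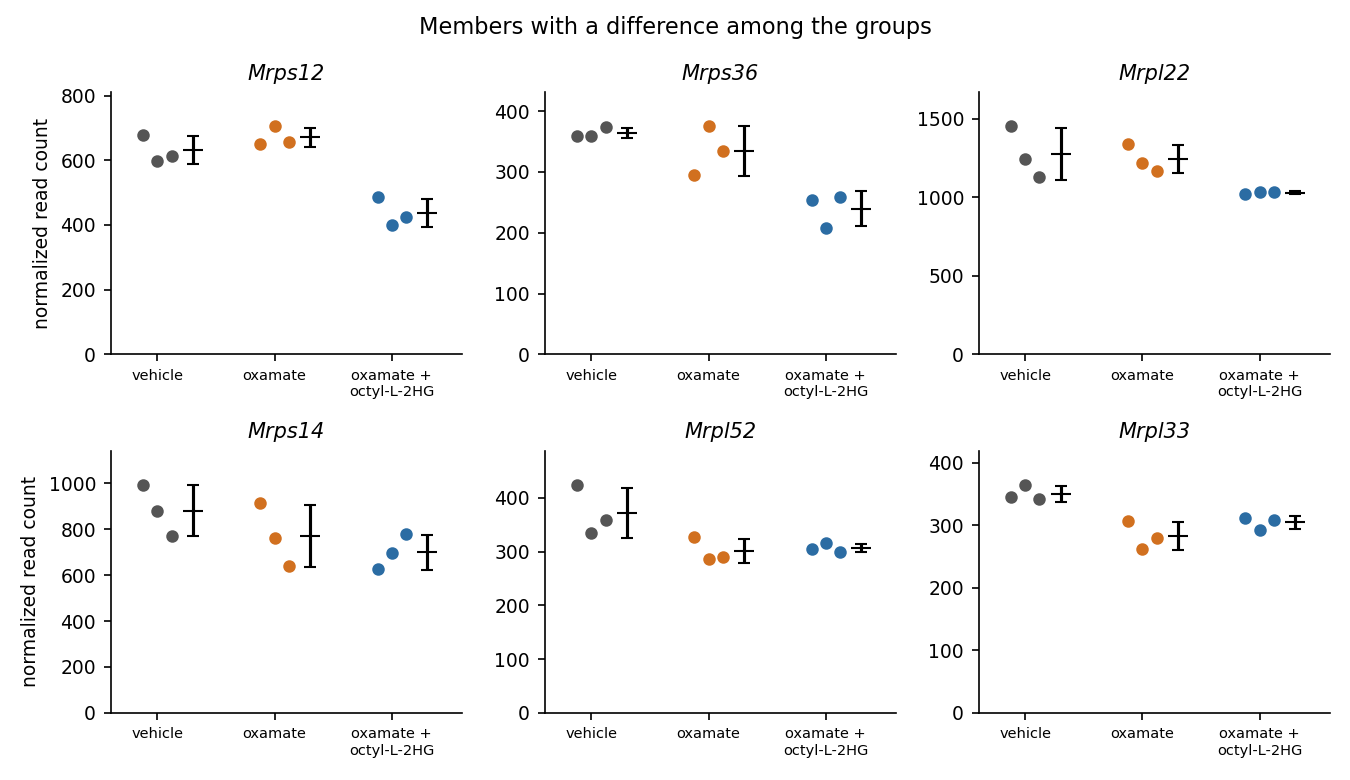
Normalized read count (vertical axis, from 0) of 6 members in each of the 9 libraries; points are libraries, and the bar beside them gives the mean and SD of 3. The 3 libraries with both compounds lie below all others for Mrps12, Mrps36 and Mrpl22, and the vehicle libraries lie above all others for Mrpl52 and Mrpl33.

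The bases before the annotated starts of the 3 genes that fell with octyl-L-2HG are shown because no other member was called between both compounds and oxamate alone. They are taken from RefSeq on GRCm38.p6, run 5' to 3' in the direction of the gene, and end at the base before the start. Capitals mark matches to 3 motifs of factors known to act on genes for mitochondrial proteins, searched on both strands: GCGCATGCG for NRF1, CCGGAAG for ETS factors such as GABP, and AAGATGGCG for YY1. Mrps12 lies on the minus strand (chr7:28741822-28742071), Mrpl22 on the plus strand (chr11:58171414-58171663) and Mrps36 on the minus strand (chr13:100744660-100744909).
Mrps12: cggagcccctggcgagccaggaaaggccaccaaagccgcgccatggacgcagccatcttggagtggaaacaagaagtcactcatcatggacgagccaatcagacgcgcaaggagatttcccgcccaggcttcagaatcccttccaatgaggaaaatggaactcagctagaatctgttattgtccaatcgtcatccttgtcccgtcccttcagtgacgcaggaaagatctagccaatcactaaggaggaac
Mrpl22: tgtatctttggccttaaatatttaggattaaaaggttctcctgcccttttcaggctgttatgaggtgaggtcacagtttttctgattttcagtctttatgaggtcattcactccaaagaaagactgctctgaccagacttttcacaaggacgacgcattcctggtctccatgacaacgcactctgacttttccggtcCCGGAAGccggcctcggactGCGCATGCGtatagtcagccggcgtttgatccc
Mrps36: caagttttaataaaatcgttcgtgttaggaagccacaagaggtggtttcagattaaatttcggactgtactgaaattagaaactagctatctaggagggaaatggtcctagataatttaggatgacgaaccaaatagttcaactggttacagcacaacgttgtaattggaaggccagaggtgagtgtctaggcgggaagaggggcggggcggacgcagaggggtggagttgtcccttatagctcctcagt
Mrpl22 holds the ETS motif at position -53 and the NRF1 motif at position -33 from the start. Mrps12 has no match in the stretch printed, and an ETS motif begins 1 base after its start. Mrps36 has no match in the 250 bases before or the 50 bases after its start. A match is a description of the letters and shows no binding.

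Windows of the same 300 bases were at hand for 68 of the 77 members. Of these, 25 (36.8%) held the ETS motif, against 9.93% of the 27025 genes with a window and 20.2% of the 8212 well covered ones. The NRF1 motif was found in 7 members (10.3%), against 1.95% and 4.31%, and the YY1 motif in 8 (11.8%), against 1.64% and 3.73%. Together, 35 members (51.5%) held at least 1 of the 3, compared with 12.7% of all genes and 26.1% of well covered ones. Among the other members that passed a threshold, Mrpl52 has 2 ETS matches and Mrpl33 has 1. No match is listed for Mrps14, which may also mean that no window was at hand for it.

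Of the 77 members, 19 have a protein-coding neighbour that starts within 1000 bases in the opposite direction. For Mrps12 this is Sars2, the mitochondrial seryl-tRNA synthetase, whose start lies 147 bases away. Sars2 had 402, 348 and 422 normalized counts in vehicle, 375, 369 and 333 with oxamate, and 292, 251 and 259 with both. As for Mrps12, the libraries with both compounds were the lowest 3. The log2 fold change of Sars2 was -0.45 ± 0.10 against oxamate (adjusted p = 0.00512) and -0.57 ± 0.10 against vehicle (adjusted p = 0.000290), and both falls were kept in all 17 alternatives. The exons of Mrps12 and Sars2 do not overlap in the annotation used.

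**Figure D5:**
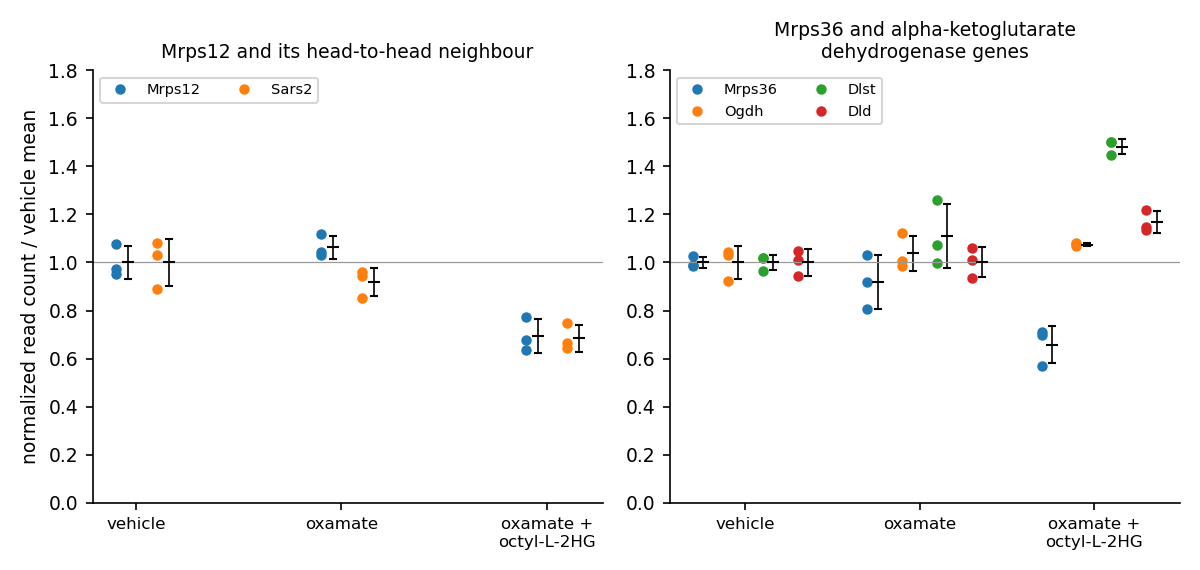
Normalized read count divided by the vehicle mean of the gene (vertical axis, from 0) in each library, for Mrps12 with its neighbour Sars2 (left) and Mrps36 with 3 genes of the alpha-ketoglutarate dehydrogenase complex (right); points are libraries, bars the mean and SD of 3. In every library with both compounds Mrps12, Sars2 and Mrps36 lie below 1, their vehicle mean, and Dlst lies above it.

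Members of the family have short transcripts, with a median length of 1316 bases against 2304 for all genes tested, and 43 of the 66 well covered members are among the 2674 shortest well covered genes (under 1562 bases). The median log2 fold change of these short genes was -0.07 for oxamate against vehicle, -0.05 for both compounds against oxamate and -0.10 for both against vehicle. For the 2673 longest genes the medians were 0.08, 0.04 and 0.13. With length as an offset, Mrps12 and Mrps36 were still called in both comparisons with octyl-L-2HG, and the number of members below 0 went from 60 to 54 for oxamate against vehicle, from 37 to 27 for both against oxamate and from 54 to 39 for both against vehicle. With the offset, 55.1%, 50.4% and 53.0% of all genes were below 0 in these comparisons, so for both compounds against vehicle the share of members (50.6%) was under that of all genes.

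Genes that act with the family in mitochondrial gene expression were counted by list. Of 27 genes for assembly and rRNA modification, none passed the threshold in any comparison (edgeR's quasi-likelihood test). In the order of the comparisons above, 5.19%, 11.2% and 18.0% of all genes tested passed it. Without adjustment, at a p-value under 0.05, the counts were 1 for oxamate against vehicle and 2 in each comparison with both compounds. The shares of all genes were then 17.3%, 23.6% and 30.0%. DESeq2 called 1, for oxamate against vehicle, where it called 7.90% of its genes. Of 5 further proteins of the particle, Chchd1 alone passed, with a fall of 0.31 on the log2 scale with both compounds against vehicle (adjusted p = 0.0395). This call was kept in 8 of 17 alternatives and lost with DESeq2, with DESeq2's size factors in edgeR and with the length offset. It was also lost without library 1, 2, 7, 8 or 9, and without libraries 1 and 4 together.

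Of 18 translation factor genes, 1 was higher with oxamate than with vehicle and none lower, where 3.97% and 1.22% of all genes tested were. Octyl-L-2HG raised 3 and lowered 1 against oxamate, where 3.18% of all genes were higher and 8.06% lower. Both compounds raised 3 and lowered 1 against vehicle, where 7.48% and 10.6% of all genes were called. Against oxamate, Mtif3 and Mtif2, the initiation factors, and Mtres1 rose by 0.40, 0.28 and 0.27 on the log2 scale (adjusted p = 0.0115, 0.0378 and 0.0389). Each of these calls was lost without library 5, 8 or 9, that of Mtif3 also without 6, that of Mtif2 without 4 or 7 and that of Mtres1 without 2 or 7. With total counts Mtif2 and Mtres1 were not called. Mtrfr, which rescues stalled ribosomes, was named after its values were seen. It had 27.5, 24.6 and 45.8 normalized counts in vehicle, 43.8, 72.2 and 55.9 with oxamate and 16.8, 20.7 and 19.7 with both. Its rise with oxamate (0.81 ± 0.22 on the log2 scale, adjusted p = 0.0361) was lost with DESeq2, with only the 2 groups fitted and without any 1 library other than 3 and 4, and its fall with octyl-L-2HG (-1.60 ± 0.26, adjusted p = 0.000316) was kept in all 17 alternatives. Against vehicle, both compounds raised Mtif3, the elongation factor Gfm1 and the recycling factor Mrrf, and these calls were lost without library 2, 3, 7, 8 or 9, that of Mrrf also without 5 or 6. None of these 3 was called with total counts or with the length offset. Slirp, which stabilises mitochondrial messenger RNA, fell by 0.34 ± 0.08 (adjusted p = 0.00463, kept in all 17).

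Of 20 genes for mitochondrial aminoacyl-tRNA synthetases and the amidotransferase, oxamate raised 2 and lowered none, where 3.97% of all genes tested were higher and 1.22% lower. Vars2 rose by 0.39 ± 0.10 on the log2 scale (adjusted p = 0.0158, lost without library 2 or 3, with the length offset and with only the 2 groups fitted) and Cars2 by 0.45 ± 0.12 (adjusted p = 0.0213, lost without library 2, 3 or 5 and with only the 2 groups fitted). Octyl-L-2HG lowered Vars2 again (-0.45 ± 0.10, adjusted p = 0.00373) beside Sars2, where 8.06% of all genes were lower and 3.18% higher. It raised 1 gene, Gatc, a subunit of the amidotransferase, by 0.38 on the log2 scale (adjusted p = 0.0137, lost without library 6, 7, 8 or 9). Against vehicle, Gatc was higher with both compounds by 0.53 ± 0.10 (adjusted p = 0.000583, kept in all 17).

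Of 14 genes for transcription and RNA processing in the organelle, oxamate raised 1 and lowered 1, octyl-L-2HG raised 1, and both compounds raised 2 and lowered 1 against vehicle. Of all genes tested, oxamate raised 3.97% and lowered 1.22%. The shares were 3.18% and 8.06% for octyl-L-2HG against oxamate, and 7.48% and 10.6% for both compounds against vehicle. Tfam, which packages mitochondrial DNA and starts its transcription, had 665, 722 and 712 normalized counts in vehicle, 475, 574 and 571 with oxamate and 480, 422 and 462 with both. Its log2 fold change was -0.37 ± 0.09 with oxamate (adjusted p = 0.0129, lost without library 2 and with only the 2 groups fitted) and -0.64 ± 0.09 with both compounds against vehicle (adjusted p = 2.32e-05, kept in all 17). Trmt10c, a subunit of mitochondrial RNase P, rose with oxamate (adjusted p = 0.0478, kept in 4 of 17 alternatives and lost without any 1 library other than 4). It was also lost with DESeq2's size factors in edgeR, total counts, filterByExpr, the length offset and only the 2 groups fitted. Polg, the polymerase of mitochondrial DNA, rose by 0.33 with both compounds against vehicle (adjusted p = 0.0142, lost without library 2 or 9 and with the length offset).

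Of 9 nuclear regulators, none passed for oxamate against vehicle, 1 rose and 2 fell with octyl-L-2HG, and 2 rose and 2 fell with both compounds against vehicle. For all genes tested, the shares higher and lower were 3.97% and 1.22% with oxamate. They were 3.18% and 8.06% with octyl-L-2HG against oxamate, and 7.48% and 10.6% with both compounds against vehicle. Gabpb1, a subunit of the ETS factor GABP, had 445 ± 30.6 normalized counts in vehicle, 420 ± 39.8 with oxamate and 286 ± 11.4 with both, a fall of 0.58 ± 0.10 on the log2 scale against oxamate (adjusted p = 0.000427). Nrf1 fell by 0.37 ± 0.08 against vehicle (adjusted p = 0.00313), while Esrra rose by 0.55 ± 0.12 (adjusted p = 0.00189), and these 3 calls were kept in all 17 alternatives. Esrra was also the gene that rose against oxamate, by 0.36 (adjusted p = 0.0484), a call kept in 9 of 17 alternatives and lost with total counts and without any 1 library other than 1 and 4. The other gene lowered against oxamate was Ppargc1b, named after its values were seen (-0.65, adjusted p = 0.0214, lost with DESeq2 and without library 5, 6, 7, 8 or 9).

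Among the 11 genes of mitochondrial DNA tested, mt-Cytb and mt-Nd2 were lower with both compounds than with vehicle, by 0.47 ± 0.11 and 0.37 ± 0.11 on the log2 scale (adjusted p = 0.00296 and 0.0185, the latter lost with the length offset and without library 2, 3, 8 or 9). Both were also lower than with oxamate alone, by 0.43 and 0.37 (adjusted p = 0.0109 and 0.0315), calls kept in 13 and 9 of 17 alternatives. Both calls were lost with the length offset and without library 5, 6 or 9. That of mt-Nd2 was also lost without library 3 or 8, with filterByExpr and with only the 2 groups fitted. The mitochondrial ribosomal RNAs are listed at 0, so the RNA of the particle was not measured.

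Other gene sets of comparable kind gave the following counts. Oxamate lowered none of the 94 nuclear respiratory chain genes and 2 of 88 cytosolic ribosomal protein genes, where 1.22% of all genes tested were lower. At an unadjusted p-value under 0.05, 18 of the 94 were lower, against 7.12% of all genes. DESeq2 called 1 of the 94 lower, against 1.70% of its genes. Against vehicle, both compounds lowered 24 of the 94 and 12 of the 88, and 5 of the 77 members (6.49%), where 10.6% of all genes tested were lower. With oxamate against vehicle the median log2 fold change was -0.11 for respiratory chain genes, -0.12 for cytosolic ribosomal protein genes and -0.08 for the members. With both compounds it was -0.13, -0.15 and -0.07. Differences between these sets were not tested.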

How the data were processed

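RNA of sorted RS was sequenced in 9 libraries, 3 per group. Per the labels and the methods, the authors trimmed the reads (cutadapt 2.10), aligned them with TopHat2 2.1.1 to GRCm39 with Ensembl annotation and counted reads per gene with HTSeq 2.01. The authors deposited these counts without normalization, and beside them a normalized signal, equal to each count over a size factor from DESeq2 1.36.0. The library kit keeps strand, but the strand setting of the counting is not given in the sources used here. Labels and methods name different sequencing instruments. The submitters' processing notes list a second, non-mouse genome build with no role.

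Counts of the 25128 genes that reached 10 reads in all 9 libraries together entered edgeR 4.0.16 (R 4.3.3): TMM normalization, 1 quasi-likelihood fit over all groups, Benjamini-Hochberg adjustment over all genes, threshold 0.05. No covariate was used. Alternatives were DESeq2 1.42.0, other scalings, filters and thresholds, a transcript length offset, fits restricted to a pair of groups, and omission of each library in turn. Leaving out vehicle library 1 and oxamate library 4 together was added after the data were seen. Levels in the text are means ± SD of the normalized signal. Transcript lengths (longest transcript) and overlaps came from GENCODE M21 (GRCm38), matched by gene identifier for 99.6% of genes tested and all 77 members. Promoter windows came from RefSeq (GRCm38.p6), matched by symbol.

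The genes named are, per comparison, up to 10 called members with the largest change and a mean of at least 100, 13 members with a known place in the particle or the cell, the 5 highest and 5 lowest levels per kilobase, the 5 smallest p-values over all groups, and up to 3 called genes per related list. The members and lists were chosen with earlier results of these data known.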

Additional observations from a re-analysis of the deposited data

How the results depend on the processing

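Mrps12 and Mrps36 were lower with both compounds than with oxamate and than with vehicle in all 17 alternatives. Counts of called members moved more, and are followed here by the share of all genes called under the same setting. With total counts as the scaling they were 1 for oxamate against vehicle (4.80%), 5 for both compounds against oxamate (11.7%), 13 for both against vehicle (18.3%) and 11 for any difference (19.6%). With filterByExpr oxamate against vehicle gave 1 member (7.48%), and with the transcript length offset 1 (4.19%), with 8 for both against vehicle (16.3%) and 9 for any difference (18.6%). Fitting only the 2 groups compared gave 10 for both against vehicle (12.1% of all genes higher and 12.9% lower). At an adjusted p under 0.01, both against vehicle and any difference gave 2 each (10.4% and 11.0%). At an unadjusted p under 0.05 the counts were 11, 8, 17 and 13 (17.3%, 23.6%, 30.0% and 31.5%). With vehicle library 1 and oxamate library 4 left out, an alternative added after the data were seen, they were 3, 7, 9 and 12 (8.60%, 23.9%, 26.3% and 32.0%). Leaving out 1 library at a time gave 0 to 10 for oxamate against vehicle, 2 to 6 for both against oxamate, 2 to 13 for both against vehicle and 2 to 18 for any difference, each maximum without oxamate library 4, where 9.28%, 17.9%, 25.1% and 29.7% of all genes were called, against 5.19%, 11.2%, 18.0% and 19.8% with all libraries. The log2 fold change of Mrpl33 with both compounds against vehicle turned from -0.22 to 0.020 with the length offset. The cause of these moves was not tested. Median fold changes of the members moved by less than 0.0738, 1 SD of the median between replicates. That SD is about as large as the medians themselves, so this does not show that they were stable. The median ran from -0.12 to -0.03 for oxamate against vehicle and from -0.03 to 0.07 for both compounds against oxamate. For both against vehicle it ran from -0.14 to -0.0090. No paired analysis was possible because the replicate numbers run from 1 to 9 and no group shares one with another. Leaving a library out leaves 2 in its group. The smallest change that could be detected was not measured for any member, including the 11 members with a mean under 100 normalized counts.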
